A study of Mus musculus with 6 samples.

Results

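The interferon-inducible GTPases are proteins that macrophages make in response to interferon and that gather on the vacuoles in which bacteria and parasites live inside the cell. The members described here are the 7 genes Gbp2, Gbp3, Irgm1, Igtp, Iigp1, Tgtp1 and Ifi47. They were chosen by gene symbol, with earlier results of these data known. Each was read by 1 probe, and they are 7 of 8841 genes named on the array. Their messenger RNA was read on 6 arrays of 1 colour. The cells were primary macrophages that thioglycollate, a sterile irritant, had drawn out in mice of strain C57BL/6, all female and 6 weeks of age. Of the 6 groups 2 had no LPS, namely No treatment and TSA, and 4 had it. The 4 were LPS by itself, TSA + LPS, GW3965 + LPS, and the 3 agents together (TSA + GW3965 + LPS). LPS (lipopolysaccharide) is the bacterial cell wall component sensed by Toll-like receptor 4. TSA (trichostatin A) inhibits histone deacetylases. GW3965 activates the liver X receptors, which are nuclear receptors of cholesterol balance. The labels give no dose, no time and no number of animals per array, and no group has GW3965 without LPS. Each group has a single array, so no value of a group carries an error of its own.

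The members come from 2 branches of the interferon-inducible GTPases. Guanylate-binding proteins, here Gbp2 and Gbp3, are large GTPases that assemble on pathogen membranes. The smaller immunity-related GTPases split by role. Irgm1 and Igtp (Irgm3) are regulators that sit on the cell's own membranes and hold the others inactive, while Iigp1 (Irga6), Tgtp1 (Irgb6) and Ifi47 (Irgd) are the effectors loaded onto pathogen vacuoles. LPS leads macrophages to secrete type I interferon, which acts back through STAT and IRF factors. These bind 2 kinds of short DNA sequence, the interferon-stimulated response element (ISRE) and the gamma-activated site (GAS).

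All 8 macrophage markers on the array of 11 listed gave signal, among them Lyz2 (lysozyme) at 729 to 1050 units. The units are the deposited intensity, in which every array's median lay between 0.981 and 0.987. Each list of markers of another cell type had members with signal and most had members at the floor on some or all arrays; the floor is each array's 25th percentile (0.198 to 0.245 units). Neutrophil markers summed to 24.6 to 83.3 units, with S100a8 at 22.0 to 78.8 and Mpo at the floor on all arrays. Natural killer cell markers summed to 21.7 to 40.0 units, nearly all from Gzma, with Nkg7 and Prf1 at the floor on all arrays, and mast cell markers to 11.8 to 20.04, mostly from Tpsb2. Mesothelial and fibroblast markers summed to 6.39 to 12.8 units, mostly from Dcn (5.21 to 11.8), with Msln at the floor on all arrays. B cell markers summed to 6.03 to 8.02 units with none at the floor (Cd79a 3.55 to 4.50), eosinophil markers to 3.87 to 6.09 (Siglecf 2.91 to 4.66), and T cell markers to 3.92 to 5.59, with Cd3e and Cd8a at the floor on all arrays and Cd4 at 1.17 to 2.16. In bulk RNA, fewer cells of a type and less RNA per cell cannot be told apart.

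The genes lie in clusters of relatives. In RefSeq's gene order for GRCm38.p6, Gbp3, Gbp2b and Gbp2 follow each other on chromosome 3. On chromosome 11, Tgtp2, which is nearly identical to Tgtp1, lies between Tgtp1 and Ifi47, so the Tgtp1 probe may also read Tgtp2. Irgm1 and Igtp are on chromosome 11 too, where Irgm2 is a near neighbour of Igtp.

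Sequence upstream of the annotated start was at hand for 6 of the 7 members, all but Iigp1 (RefSeq, GRCm38.p6), and 5 of these 6 carried the core of an ISRE. It was searched on both strands as a pair of GAAA with any 2 bases between them, in windows of 250 bases before to 50 bases after each start. The 5 stretches below begin 100 bases before the start and show where the matches lie, with matches in capitals, and they end at the base before the start, or for Gbp3 29 bases before it, where another annotated start follows. They run 5′ to 3′ on the gene's own strand: Gbp2 at chr3:142620563-142620662 (+), Gbp3 at chr3:142559944-142560015 (+), Irgm1 at chr11:48871421-48871520 (-), Igtp at chr11:58199456-58199555 (+) and Tgtp1 at chr11:48992247-48992346 (-).
Gbp2: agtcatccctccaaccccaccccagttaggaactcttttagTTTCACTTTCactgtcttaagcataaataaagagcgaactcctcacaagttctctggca
Gbp3: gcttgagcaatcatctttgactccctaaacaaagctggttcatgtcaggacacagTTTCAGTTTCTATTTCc
Irgm1: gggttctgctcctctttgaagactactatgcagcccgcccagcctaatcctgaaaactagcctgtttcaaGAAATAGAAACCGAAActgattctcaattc
Igtp: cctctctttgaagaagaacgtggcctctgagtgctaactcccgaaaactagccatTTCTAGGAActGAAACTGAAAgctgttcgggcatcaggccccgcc
Tgtp1: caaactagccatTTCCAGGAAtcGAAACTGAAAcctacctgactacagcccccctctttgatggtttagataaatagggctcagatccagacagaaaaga
Gbp2 and Gbp3 hold the ISRE core on the opposite strand, as TTTCACTTTC 59 to 50 bases before the start in Gbp2 and as TTTCAGTTTC and TTTCTATTTC, which overlap, 45 to 30 bases before it in Gbp3. Irgm1 holds 2 overlapping cores 30 to 15 bases before its start. In Igtp and Tgtp1 the core GAAACTGAAA is preceded, 2 bases away, by a GAS core, searched as TTCNNNGAA. Neither motif matched in the window of Ifi47.

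Of all 32851 windows, 3.44% held the ISRE core, 8.30% held TTCNNNGAA and 0.454% held both. Among windows of genes that rose with LPS in the fit described further on, members left out, 50 of 654 (7.65%) held the ISRE core, against 181 of 5277 (3.43%) over all fitted genes. A match is a stretch of letters and not a measured binding site, and these shares were not tested.

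**Figure D1:**
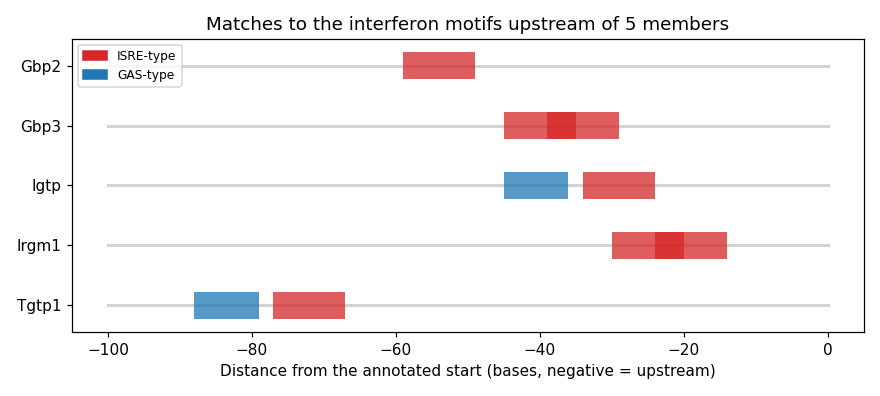
Positions of the ISRE-type (red) and GAS-type (blue) motif matches in the 100 bases before the annotated start of 5 members, in bases; the darker part of a red block is where 2 matches overlap. Igtp and Tgtp1 have both kinds side by side, and Gbp2, Gbp3 and Irgm1 the ISRE type alone.

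The 2 guanylate-binding proteins were low in cells without LPS and high in all cells with it. Gbp2 read 4.60 units in No treatment, 7.51 with TSA, 55.4 with LPS, 31.0 with TSA + LPS, 40.5 with GW3965 + LPS and 53.7 with TSA + GW3965 + LPS. Gbp3 read 3.73, 7.66, 135, 48.0, 80.0 and 84.0 units in the same order. In both genes the 4 arrays with LPS stood above the 2 without it, LPS alone was the highest array and TSA + LPS the lowest of the 4. The share of all genes in which arrays with and without LPS separate like this was not counted.

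The regulators Irgm1 and Igtp had the same highest array. Irgm1 read 21.7 units in No treatment, 26.4 with TSA, 147 with LPS, 60.6 with TSA + LPS, 82.4 with GW3965 + LPS and 72.8 with TSA + GW3965 + LPS. Igtp read 2.82, 2.33, 24.6, 14.2, 14.1 and 11.2 units in that order. With TSA + LPS, Irgm1 stood at 41.1% and Igtp at 57.7% of the level with LPS alone, and with GW3965 + LPS they stood at 56.0% and 57.3%. For both genes the arrays with and without LPS did not overlap, a trait not counted over all genes.

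Among the effectors, Tgtp1 and Ifi47 had TSA + LPS as their highest array, and Iigp1 had LPS. Tgtp1 read 13.6 units in No treatment, 69.3 with TSA, 314 with LPS, 400.1 with TSA + LPS, 132 with GW3965 + LPS and 212 with TSA + GW3965 + LPS. Ifi47 read 42.3, 115, 665, 827, 551 and 612 units in that order. Iigp1 read 0.730 units in No treatment, below that array's median, and it read 2.82 with TSA, 18.4 with LPS, 13.0 with TSA + LPS, 7.32 with GW3965 + LPS and 14.0 with TSA + GW3965 + LPS. For the 3 effectors too the arrays with and without LPS did not overlap, again with no share over all genes counted.

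**Figure D2:**
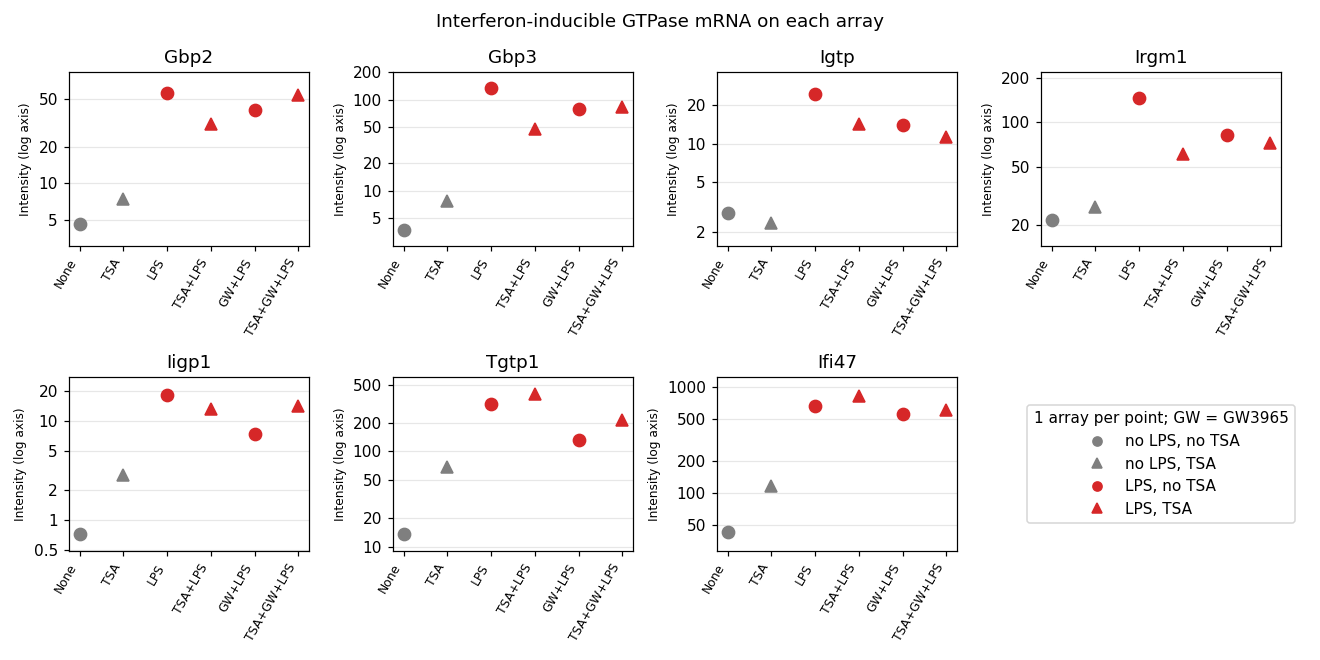
Intensity of each member (vertical log axis, deposited units) on each of the 6 arrays; circles are arrays without TSA, triangles arrays with TSA, grey no LPS and red LPS, 1 array per point. Every red point lies above every grey point of its gene, and Tgtp1 and Ifi47 are highest in TSA + LPS where the other 5 genes are highest in LPS. The share of all genes with such a separation was not counted.

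LPS against No treatment asks what the stimulus alone does, and all 7 GTPases were higher with it, by 6.78-fold to 36.2-fold. Gbp3 was 36.2-fold higher, Iigp1 25.1-fold, Tgtp1 23.2-fold, Ifi47 15.7-fold, Gbp2 12.05-fold, Igtp 8.72-fold and Irgm1 6.78-fold. Among the 7 members, Irgm1 and Igtp thus had the smallest folds and Gbp3 the largest. This order was not general to regulators: Irgm2, a regulator outside the members, read 0.743 units in No treatment and 10.5 with LPS, a larger fold than that of Gbp2. In the pair with TSA, given below, Igtp also stood above Tgtp1, Iigp1 and Gbp2. At least 2-fold higher readings were found for 7 of 7 members and for 14.0% of the 4790 genes measured in this pair, and 0 members against 6.05% of genes were 2-fold lower. Over all genes that is 669 higher and 290 lower, or 560 and 429 after quantile normalization.

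Over both LPS pairs, a limma model that adds the effects of LPS, TSA and GW3965 over the 6 arrays called all 7 members as risen, where 12.3% of 5080 genes rose and 7.11% fell (626 and 361 genes, or 543 and 557 after quantile normalization). The p-values are adjusted by Benjamini-Hochberg over the 5080 genes and called under 0.05. With 1 array a group, the model's 2 residual degrees of freedom are departures from additivity, LPS by TSA and GW3965 by TSA. In these departures technical spread and a true interaction cannot be told apart, and the p-values measure no spread between replicates. On simulated data this model and the interaction model below gave a share of false calls above their threshold in some draws. The threshold bounds the mean share over draws, so single draws above it do not tell whether the models err. Gbp3 rose by 3.91 on the log2 scale (SE 0.38, limma adjusted p = 1.8e-07) and Gbp2 by 2.82 (SE 0.31, adjusted p = 1.01e-06). Tgtp1 rose by 3.53 (SE 0.34, limma adjusted p = 1.32e-07), Iigp1 by 3.43 (SE 0.38, adjusted p = 1.04e-06) and Ifi47 by 3.41 (SE 0.27, adjusted p = 9.68e-09). Of the regulators, Igtp rose by 2.86 (SE 0.26, limma adjusted p = 7.59e-08) and Irgm1, the member with the smallest rise, by 1.98 (SE 0.30, adjusted p = 5.64e-05). Differences between members were not tested. Each member was higher in 2 of 2 pairs, and in size the members ranked from 45 (Gbp3) to 205 (Irgm1) among 5080 genes. The members' median was 3.41 against 0.03 over all genes, and 3.03 against -0.11 after quantile normalization. The summed level of the 8 neutrophil markers on the array moved the same way, from 24.6 units in No treatment and 38.7 with TSA to between 52.0 and 83.3 with LPS, mostly through S100a8. Of the 4 fitted neutrophil markers, S100a8 rose with LPS by 1.20 and Camp by 2.91, from the floor on both arrays without LPS, while Ltf fell by 1.34 and Prtn3 did not pass. The summed markers of mast cells (11.8 and 13.9 units without LPS, 16.7 to 20.04 with it), of mesothelium and fibroblasts (6.39 and 9.64, then 11.5 to 12.8) and of B cells (6.03 and 6.25, then 6.82 to 8.02) were also higher on all 4 arrays with LPS, and none of their fitted genes passed. The part of such cells in the LPS result was not tested.

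TSA + LPS against TSA gives the LPS response in cells that had the inhibitor, and it was smaller for every member. Ifi47 was 7.18-fold higher with LPS here, Gbp3 6.27-fold, Igtp 6.07-fold, Tgtp1 5.77-fold, Iigp1 4.63-fold, Gbp2 4.12-fold and Irgm1 2.29-fold. All 7 members were at least 2-fold higher, as were 9.2% of 4785 genes, with 6.37% lower. Over all genes too, fewer were at least 2-fold higher with LPS here than without TSA, 440 of 4785 against 669 of 4790. The share of all genes whose LPS response was smaller with TSA was not counted. Set against the response without TSA, the fold was 5.78 times smaller for Gbp3, 5.43 times for Iigp1 and 4.01 times for Tgtp1. It was 2.96 times smaller for Irgm1, 2.92 for Gbp2, 2.19 for Ifi47 and 1.44 for Igtp.

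The genes reached that smaller response in different ways. For Tgtp1 the level with TSA + LPS was 1.27-fold above that with LPS, and the level at rest was 5.11-fold higher with TSA. For Gbp3 the level with TSA + LPS was 2.81-fold below that with LPS, and the level at rest was 2.05-fold higher. For Irgm1 the resting levels were 1.22-fold apart and the LPS levels 2.43-fold apart.

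**Figure D3:**
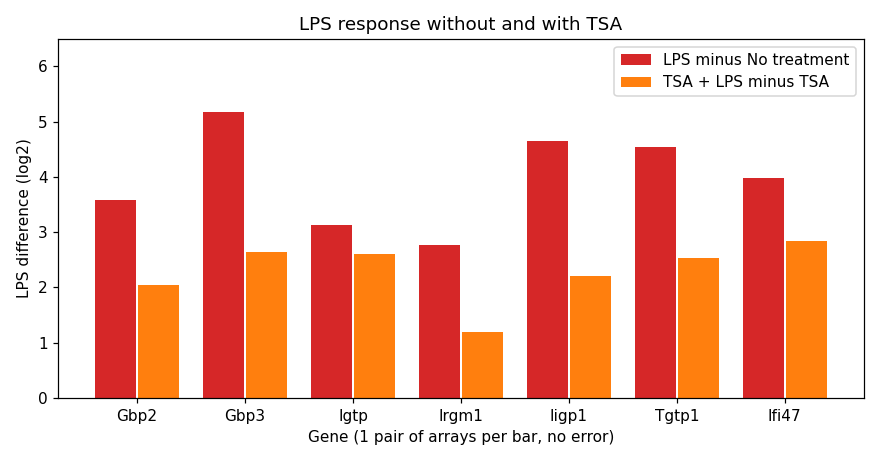
LPS difference of each member on the log2 scale, without TSA (red, LPS minus No treatment) and with TSA (orange, TSA + LPS minus TSA); each bar is 1 pair of arrays and has no error. The orange bar is the shorter for all 7 genes, from 5.18 down to 2.65 for Gbp3 and from 3.12 down to 2.60 for Igtp. The share of all genes with a smaller LPS difference under TSA was not counted.

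A limma model with a further LPS by TSA term tested this difference, and it called 2 members, Tgtp1 and Gbp3. The term sets the TSA difference under LPS, averaged over the pairs without and with GW3965, against the TSA difference at rest. It was -1.84 for Tgtp1 (SE 0.45, limma adjusted p = 0.0257) and -1.75 for Gbp3 (SE 0.44, adjusted p = 0.0363), with 10 of 5080 genes (0.197%) called in this direction and 2 (0.0394%) in the other, or 13 and 5 after quantile normalization. Iigp1 did not pass at -1.72 (SE 0.50, limma adjusted p = 0.109), nor did Ifi47 at -1.21, Irgm1 at -1.01, Gbp2 at -0.92 and Igtp at -0.29 (adjusted p from 0.592 to 1.0, unadjusted p under 0.05 for 6 of the 7 members and for 255 of 5080 genes). The term was below 0 for 7 of 7 members, and its median was -1.21 for the members and -0.04 for all genes. The share of all genes below 0 was not counted. For the 6 other interferon-inducible GTPases fitted, described further on, the median was -1.39 and 0 were called. A median this low was thus not particular to the members. This fit has 1 residual degree of freedom and takes its error from the intensity trend alone, not from a gene's own scatter, which was 0.78 (residual SD, log2) for Gbp3 and 0.17 for Tgtp1. Without the trend neither passed in limma (adjusted p = 0.202 for Tgtp1 and 0.263 for Gbp3), nor did either with every array floored at its median (0.868 and 0.888), and Gbp3 did not pass without the filter on dim genes (0.0768); Ifi47 passed after quantile normalization (0.00724) and cyclic loess (0.0155).

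In resting cells, the comparison of TSA with No treatment, the 3 effectors were the members with the largest differences. Tgtp1 was 5.11-fold higher with TSA, Iigp1 3.86-fold, Ifi47 2.73-fold and Gbp3 2.05-fold. Gbp2 was 1.63-fold higher and Irgm1 1.22-fold, and Igtp was 1.21-fold lower. Of the 7 members 4 were at least 2-fold higher, against 6.98% of 4729 genes, and 0 at least 2-fold lower, against 4.69%.

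TSA + LPS against LPS is the comparison of the series title, and there 5 of 7 members read lower with TSA. Gbp3 stood at 35.6% of its LPS level, Irgm1 at 41.1%, Gbp2 at 55.9%, Igtp at 57.7% and Iigp1 at 71.1%. Tgtp1 and Ifi47 were 1.27-fold and 1.24-fold higher. At least 2-fold lower readings were found for 2 members, Gbp3 and Irgm1, and for 9.55% of 4794 genes, and 0 members against 7.57% of genes were 2-fold higher.

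Where GW3965 was also present, 5 of 7 members read higher with TSA, all by under 2-fold. Iigp1 was 1.92-fold higher with TSA + GW3965 + LPS than with GW3965 + LPS, Tgtp1 1.61-fold, Gbp2 1.32-fold, Ifi47 1.11-fold and Gbp3 1.05-fold. Igtp was 1.26-fold and Irgm1 1.13-fold lower. No member was 2-fold apart in this pair, where 4.83% of 4697 genes were at least 2-fold higher and 1.13% lower. These 3 pairs share no array with each other.

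**Figure D4:**
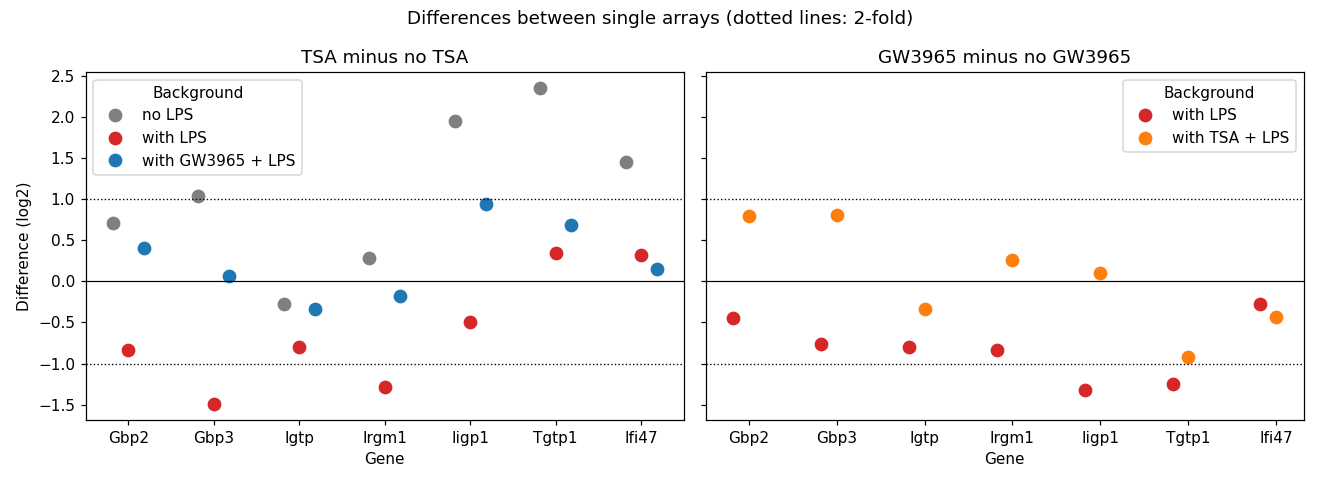
Left, TSA difference of each member (log2) in cells without LPS (grey), with LPS (red) and with GW3965 + LPS (blue); right, GW3965 difference with LPS (red) and with TSA + LPS (orange). Each point is 1 pair of arrays, and dotted lines mark 2-fold. On the left the red points of Gbp2, Gbp3, Irgm1 and Iigp1 lie below 0 and their grey points above it, whereas Tgtp1 and Ifi47 lie above 0 in all 3.

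As a mean over the 3 pairs limma called Tgtp1 and Ifi47 as risen with TSA, 2 of 7 members against 11.0% of all genes, and 0 as fallen, against 7.54%. Of the 4 fitted neutrophil markers 2 rose with TSA too. Prtn3 rose by 3.12 (limma adjusted p = 5.98e-06), reading 4.24 units with TSA, 1.31 with TSA + LPS and 1.18 with TSA + GW3965 + LPS and at the floor on the 3 arrays without TSA. S100a8 rose by 0.60 (SE 0.20, limma adjusted p = 0.0400), and the part of such cells in the TSA result was not tested. Tgtp1 was higher in 3 of 3 pairs and rose by 1.13 (SE 0.27, limma adjusted p = 0.00844). Ifi47, also higher in 3 of 3 pairs, rose by 0.64 (SE 0.22, limma adjusted p = 0.0499). Iigp1, higher in 2 of 3 pairs, did not pass at 0.80 (SE 0.31, limma adjusted p = 0.0794). Igtp stood at -0.47 (95% interval -0.91 to -0.02, limma adjusted p = 0.139) and Irgm1 at -0.39 (95% interval -0.91 to 0.12). Gbp2 and Gbp3 averaged near 0, at 0.09 (95% interval -0.44 to 0.62) and -0.13 (95% interval -0.78 to 0.52), and their pairs differ in sign. Without the No treatment array, which leaves the pairs with LPS to set the term, neither Tgtp1 (limma adjusted p = 0.201) nor Ifi47 (0.681) passed, and Gbp3 and Irgm1 fell by 0.71 (adjusted p = 0.0458) and 0.73 (0.0388); without the TSA array the calls were the same. Ifi47 also missed the threshold under quantile normalization (0.188), cyclic loess (0.202), a floor at the array median (0.173), the mean of each gene's probes (0.0533) and a prior with no intensity trend (0.106), and Tgtp1 with the floor at the median (0.0933); Iigp1 passed without the LPS array, without the TSA + LPS array and with no filter on dim genes (0.00514).

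**Figure D5:**
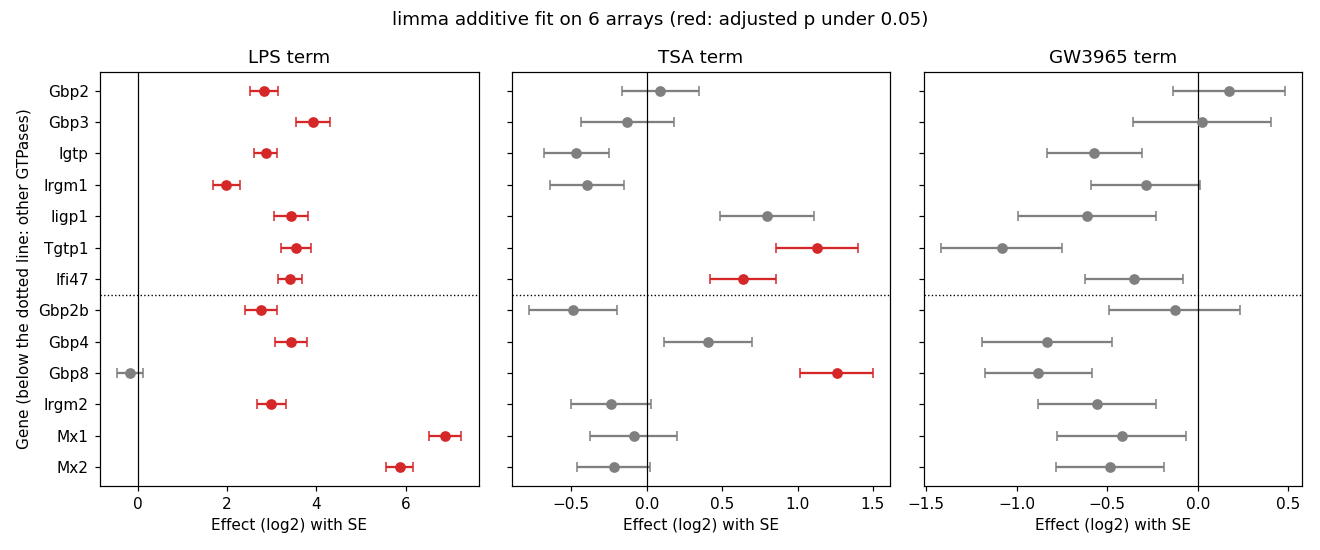
Effect of LPS, TSA and GW3965 on the log2 scale with its standard error, from the additive limma fit on 6 arrays, for the 7 members and for 6 other interferon-inducible GTPases below the dotted line; red marks an adjusted p under 0.05. All 7 members are red for LPS, Tgtp1 and Ifi47 for TSA, and none for GW3965.

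GW3965 + LPS against LPS sets 1 array with the liver X receptor agonist against 1 without it, and all 7 members read lower with the agonist. The median difference was -0.80 on the log2 scale for the members and -0.02 over the 4622 genes measured. The share of all genes lower in this pair was not counted. Iigp1 was 2.51-fold and Tgtp1 2.38-fold lower. Irgm1 was 1.79-fold lower, Igtp 1.74-fold, Gbp3 1.69-fold, Gbp2 1.37-fold and Ifi47 1.21-fold. At least 2-fold lower readings were found for 2 of 7 members and for 1.25% of 4622 genes, and 0 members against 0.476% of genes were 2-fold higher. This pair shares the LPS array with the comparisons of LPS with No treatment and of TSA + LPS with LPS.

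In cells that also had TSA the GW3965 difference was mixed. Gbp3 was 1.75-fold, Gbp2 1.73-fold, Irgm1 1.20-fold and Iigp1 1.07-fold higher with TSA + GW3965 + LPS than with TSA + LPS. Tgtp1 was 1.89-fold, Ifi47 1.35-fold and Igtp 1.27-fold lower. No member was 2-fold apart here, where 1.75% of 4682 genes were at least 2-fold higher and 0.577% lower.

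limma's mean over both pairs called 0 members for GW3965, with 3 genes risen (0.0591%) and 1 fallen (0.0197%) of 5080, and 2 of 7 members and 140 of 5080 genes had an unadjusted p under 0.05. The larger of these was Tgtp1 at -1.08 (95% interval -1.79 to -0.38, limma adjusted p = 0.687), lower in 2 of 2 pairs, and the other was Igtp at -0.57 (95% interval -1.12 to -0.02, adjusted p = 1.0). Gbp2 stood at 0.17 (95% interval -0.48 to 0.82) and Gbp3 at 0.02 (95% interval -0.77 to 0.82). Tgtp1 passed without the filter on dim genes (limma adjusted p = 0.0111), without the No treatment array (0.0146), without the TSA array (0.0133) and without TSA + LPS (6.28e-06), and in that last fit Iigp1 passed too (0.000318).

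Other interferon-inducible GTPases on the array, from these branches and the Mx branch, mostly shared the LPS rise. Of 6 such genes 5 rose with LPS in limma and 1 did not pass; with TSA 1 rose and 5 did not pass. Over all genes, for this and the lists below, 12.3% rose and 7.11% fell with LPS, and 11.0% rose and 7.54% fell with TSA. The antiviral GTPases Mx1 and Mx2 rose by 6.89 (with the No treatment array of Mx1 at the floor) and 5.86, Gbp4 by 3.43, the regulator Irgm2 by 2.99 and Gbp2b by 2.76. Irgm2 read 0.743 units in No treatment, 1.22 with TSA, 10.5 with LPS, 5.42 with TSA + LPS, 6.01 with GW3965 + LPS and 4.36 with TSA + GW3965 + LPS, with LPS highest as for Irgm1 and Igtp. Gbp8 was the exception: it did not pass for LPS, at -0.18, and rose with TSA by 1.26 (SE 0.24, limma adjusted p = 0.00154), reading 1.17 in No treatment and 3.87 with TSA.

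Genes of interferon signalling rose in part with LPS, and whether they act on the members in these cells was not tested. Of 3 fitted interferon ligands and receptors, Ifng, the ligand that drives this family most strongly, rose with LPS by 2.84 and fell with TSA by 1.21 (SE 0.31, limma adjusted p = 0.0125). It read 3.48 units with LPS and 0.900 with TSA + LPS, and at rest it was near or at the floor, at 0.267 in No treatment and 0.228 with TSA. The receptor chains Ifnar1 and Ifngr1 did not pass for either term, and Ifnar2 was too dim to be fitted. Of 10 fitted signal transducers and factors 7 rose with LPS, none fell and 3 did not pass. Irf7, a factor that binds the ISRE, rose by 3.36, the kinase Jak2 by 2.94, Stat2 by 2.56 and Irf1 by 2.31, and Irf8, Tyk2 and Irf9 by 1.07, 0.96 and 0.85. The LPS effect was 0.48 for Irf5, 0.19 for Irf3 and 0.10 for Stat3, none of which passed. With TSA 1 of the 10 was called, Irf8, which fell by 0.99 (limma adjusted p = 0.0121).

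Among negative regulators of interferon signalling, some rose with LPS and some fell with TSA. Of 7 fitted, 3 rose with LPS, namely Socs1 by 3.73, Socs3 by 3.70 and the phosphatase Ptpn2 by 1.48, and 4 did not pass. With TSA 3 fell, the phosphatases Ptpn1 by 1.47 and Ptpn6 by 1.03 and the inhibitor Socs1 by 0.79, and 4 did not pass. Ptpn11 and Pias1 passed for neither term. Of 11 fitted autophagy and ubiquitin genes whose proteins help place these GTPases on membranes, 3 rose with LPS and 2 fell. The ubiquitin ligase Trim21 rose by 2.75, Rabgef1 by 0.81 and Atg16l1 by 0.78, while Atg7 and Map1lc3b, parts of the conjugation machinery that directs them, fell by 1.21 and 1.0. With TSA the adaptor Sqstm1 (p62) fell by 0.68 and the other 10 did not pass. No gene of these 4 lists, which hold 31 fitted genes apart from the GTPases, was called for GW3965 or for the LPS by TSA term.

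Genes with the most similar pattern were sought among 2523 other fitted genes that spanned at least 1 on the log2 scale, by Pearson correlation with the members' mean centred profile over 6 arrays. The 10 closest were Trim25, Usp25, Ms4a6c, Peli1, Ppa1, Ifit2, Tank, Upp1, Slfn1 and Ifih1, with r from 0.994 to 0.998. All the points share the contrast of 4 arrays with LPS and 2 without, so such values are a description. Trim25, a ubiquitin ligase of antiviral RNA sensing, read 0.228 in No treatment, at the floor, 0.378 with TSA, 1.84 with LPS, 1.20 with TSA + LPS, 1.15 with GW3965 + LPS and 1.23 with TSA + GW3965 + LPS. Ifih1, a sensor of viral RNA, read 7.29, 16.8, 324, 261, 166 and 173 units in that order. For single members the closest genes were Sppl2a for Gbp2, Scfd1 for Gbp3, Ptgs2 for Irgm1, Il4i1 for Igtp, Abhd2 for Iigp1, Snap29 for Tgtp1 and Mug1 for Ifi47, with r from 0.988 to 0.999.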

How the data were processed

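Per the labels' protocols, total RNA was taken with a spin-column kit, copied from an oligo-dT primer and amplified and biotin-labelled by in vitro transcription. As deposited, the values are intensities on a linear scale that the authors had already scaled between arrays; the method is not given in the sources used here, and 19 to 28 values per array are at or below 0.

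Of 10076 probes, 8983 carried 1 symbol, 1 several and 1092 none in the platform annotation. For 8975 of them the gene ID was found in RefSeq's mouse gene table. Each array was floored at its 25th percentile and log2-transformed, and a gene was read from its brightest probe. The 5080 genes at or above an array's median on at least 1 array were fitted with limma 3.58.1 in R 4.3.3 (empirical Bayes with an intensity trend, 2 residual and 16.9 prior degrees of freedom). The interaction model adds an LPS by TSA term, has 1 residual degree of freedom and an infinite prior. Tested on simulated data, both models gave a share of false calls above their threshold in some draws, which does not decide whether their mean share lies above it. All 7 members passed the level filter and none was at the floor. Pairs of arrays were compared at 2-fold with no test, over genes at or above the median on the brighter array.

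Named genes were the members, genes of 5 pathway lists that passed the test, all genes of lists with 10 or fewer fitted genes, and the genes closest in pattern. The members and lists were chosen with earlier results of these data known. Alternatives were quantile and cyclic loess normalization, floors at the 10th percentile and the median, no filter, the mean of a gene's probes, no trend, each array left out, and thresholds of 1.5-fold and 3-fold. The number of arrays limits the precision.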

Additional observations from a re-analysis of the deposited data

Results flagged for a closer look

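For 2 members the LPS response differed between cells with and without TSA by limma's interaction term, which averages the TSA difference under LPS over the pairs without and with GW3965. The term was -1.75 on the log2 scale for Gbp3 and -1.84 for Tgtp1. In the pairs without GW3965 alone the difference was -2.53 and -2.004. With no intensity trend neither passed (limma adjusted p = 0.263 for Gbp3 and 0.202 for Tgtp1). For 4 members GW3965 went with a lower reading beside LPS alone and a higher one beside TSA + LPS. The gap between these differences was 1.25 on the log2 scale for Gbp2, 1.56 for Gbp3, 1.10 for Irgm1 and 1.43 for Iigp1. Each of these gaps rests on 1 pair of arrays per condition, and the difference was not tested.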

How the results depend on the processing

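The LPS rise kept its direction and stayed past the threshold for all 7 members in all 91 combinations of member and alternative. For the other terms the counts below changed. With arrays floored at their medians, 650 genes were called for LPS, 341 for TSA, 0 for GW3965 (128 at an unadjusted p under 0.05) and 0 for the interaction (264 at an unadjusted p under 0.05), and 0 members rose with TSA and 0 fell in the interaction. With no filter on dim genes 20 of 8841 genes and 1 member were called for GW3965, the member as fallen, as were 8 genes in all. In the interaction 1 member fell under this setting, as did 9 of 8841 genes. With no intensity trend 1 member rose with TSA, as did 482 of 5080 genes, and 0 members fell in the interaction, against 6 genes. Quantile normalization, cyclic loess and the mean of a gene's probes left 1 member risen with TSA. The genes risen were 487 of 5080, 509 of 5086 and 540 of 5051 in that order. With arrays left out singly, 333 to 652 of 5080 genes rose with TSA and 278 to 325 fell. Leaving out each array in turn gave 593 (without No treatment) to 1174 (without TSA + LPS) genes for LPS and 7 to 55 for GW3965, 0 to 3 members risen and 0 to 2 fallen with TSA, and 0 to 2 fallen with GW3965.

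TSA effects near 0 changed sign: Gbp2 was -0.0158 under cyclic loess, and over the arrays left out Gbp2 ran from -0.22 to 0.56, Gbp3 from -0.71 to 0.55 and Irgm1 from -0.73 to 0.0512. For GW3965, Gbp3 was -0.0210 under cyclic loess and -0.0282 under quantile normalization. Over the arrays left out the GW3965 effect ran from -0.53 to 0.87 for Gbp2, -0.998 to 1.05 for Gbp3, -0.95 to 0.38 for Irgm1, -1.58 to 0.36 for Iigp1 and -0.72 to 0.0116 for Ifi47. The cause of these changes was not tested.

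At 1.5-fold 5 members were lower with GW3965 + LPS than with LPS, as were 332 of 4622 genes. With TSA + LPS against LPS 4 members were lower, as were 1061 of 4794 genes. With TSA + GW3965 + LPS against GW3965 + LPS 2 members were higher, as were 660 of 4697 genes. At that threshold 2 members were higher and 1 lower with TSA + GW3965 + LPS than with TSA + LPS. Over all 4682 genes of this pair, 517 were higher and 271 lower. At 3-fold 0 members were lower in GW3965 + LPS or TSA + LPS against LPS, against 12 of 4622 and 89 of 4794 genes. With TSA against No treatment 2 members were 3-fold higher, as were 72 of 4729 genes. Of the 2-fold counts, members higher with TSA + LPS than with TSA went from 7 to 6 under quantile normalization, with 406 of 4785 genes higher. Members higher with TSA than with No treatment went from 4 to 3 under quantile normalization and cyclic loess. In that pair 300 of 4729 genes were higher under quantile normalization and 280 of 4724 under cyclic loess. No paired analysis was possible because each group has 1 array. No array could be left out of the interaction model, which then has no residual degree of freedom.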
